A study of Mus musculus with 6 samples.

Results

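Mitochondrial proteases remove damaged or surplus proteins inside mitochondria and cut selected proteins to change their activity. The genes described here are 10 that encode the main ATP-dependent proteases of the organelle, their subunits and a small set of ATP-independent proteases, chosen by name for their function. Of these 10, 8 were found and tested among the 51499 assembled loci of the count table (Yme1l1, Oma1, Afg3l2, Lonp1, Clpp, Clpx, Htra2 and Parl). Afg3l1 and Spg7, which encode further subunits of m-AAA proteases, were not analysed here. The comparison asks whether transcripts of other proteases differed once Yme1l, which encodes YME1L, had been deleted.

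The proteases work in separate places. YME1L faces the intermembrane space from the inner membrane (an i-AAA protease), whereas AFG3L2 faces the matrix (an m-AAA protease). LONP1 and the complex of CLPP with its unfoldase CLPX degrade matrix proteins. OMA1 is a stress-activated metalloprotease of the inner membrane that cuts the fusion GTPase OPA1, which YME1L also cuts. PARL is a rhomboid protease within the inner membrane, and HTRA2 is a serine protease of the intermembrane space. LONP1, CLPP and the mitochondrial chaperones are commonly used as readouts of mitochondrial protein-folding stress.

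Poly(A) RNA was sequenced from embryonic fibroblasts of the mouse (MEFs), immortalized with SV40, that were either wild type (WT, Yme1l fl/fl) or Yme1l-/-, with 3 cultures of each and no further treatment in the labels. All cells came from animals with floxed Yme1l alleles, and the study exposed them to Cre recombinase and expanded individual clones, so WT cells are clones whose alleles were not recombined. How many clones the cultures of a genotype represent is not given in the sources used here, and differences between clones and between genotypes cannot be told apart. P-values therefore measure the spread between cultures.

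Libraries held between 33180867 and 49351107 counted fragments, and the Yme1l-/- libraries reached higher totals (34624075 to 49351107) than the WT libraries (33180867 to 34012520). Among the 13867 loci that entered edgeR's quasi-likelihood test, 67.7% were called at an adjusted p of 0.05, 33.6% higher and 34.1% lower in Yme1l-/-, so a call was the usual outcome for a gene. The libraries of the genotypes did not overlap for 71.9% of loci. The fibroblast genes Col1a1, Col1a2 and Vim were abundant in every library, and the summed level of 8 fibroblast markers was 6210 to 6423 CPM (fragment counts scaled to library size after TMM normalization) in WT and 4368 to 4590 CPM in Yme1l-/-. These markers did not move together. Mean Vim fell from 2605 to 1039 CPM and Col1a2 from 1722 to 1077 CPM, whereas Col1a1 rose from 1616 to 2177 CPM. Of the 7 fibroblast markers tested, 1 was called higher, 5 lower and 1 was not called. Thy1 had at most 6 fragments in a WT library and 0 in Yme1l-/-. The 4 epithelial markers summed to 32.89 to 34.85 CPM in WT and 0.2944 to 0.6572 CPM in Yme1l-/-. Krt18 made up nearly all of the WT sum, and had at most 3 fragments in a Yme1l-/- library. The 4 macrophage markers summed to 1.741 to 1.964 CPM in WT and 3.772 to 4.141 CPM in Yme1l-/-, mostly from Cd68, with Adgre1 at 0 and Ptprc at no more than 1 fragment. The 4 endothelial markers summed to 0.8882 to 1.436 CPM in WT and 1.668 to 2.003 CPM in Yme1l-/-, mostly from Kdr. The part that these marker differences play in the results was not tested. In bulk RNA, fewer cells that express a gene and less RNA per cell cannot be told apart.

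Yme1l1, as Yme1l is named in the files, was examined first. It lies on chromosome 2 (23156369 to 23199260, mm10) and WT libraries counted 6327, 6292 and 5968 fragments from it, Yme1l-/- libraries 1327, 1963 and 2067. In CPM these were 191.1, 192.2 and 182.8 against 37.92, 38.93 and 40.57. All 3 Yme1l-/- cultures were low, in the direction of their labels, and 20.7% of the WT level remained (log2 fold change -2.27 ± 0.05, SE, edgeR adjusted p 2.43e-11). The counts are for the whole locus, so they do not show which exons the remaining fragments came from.

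Among the other 7 proteases, 4 rose, 2 fell and 1 was not called. For all 8 with Yme1l1 this was 7 calls, beside the 67.7% of all loci called. Increases were measured for Lonp1, Clpp, Htra2 and Parl, and decreases for Afg3l2 and Clpx. None of the 7 differed by 2-fold (0 of 7). The median log2 fold change of the 7 was 0.23, where that of all loci was -0.00411, and the sizes were ordinary, since the median absolute log2 fold change of all loci was 0.384. Lonp1 exceeded 60.5% of all loci in the size of its change, Clpp 54.5%, Htra2 46.2% and the remaining 4 between 12.3% and 33.1%, against 92.7% for Yme1l1.

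**Figure D1:**
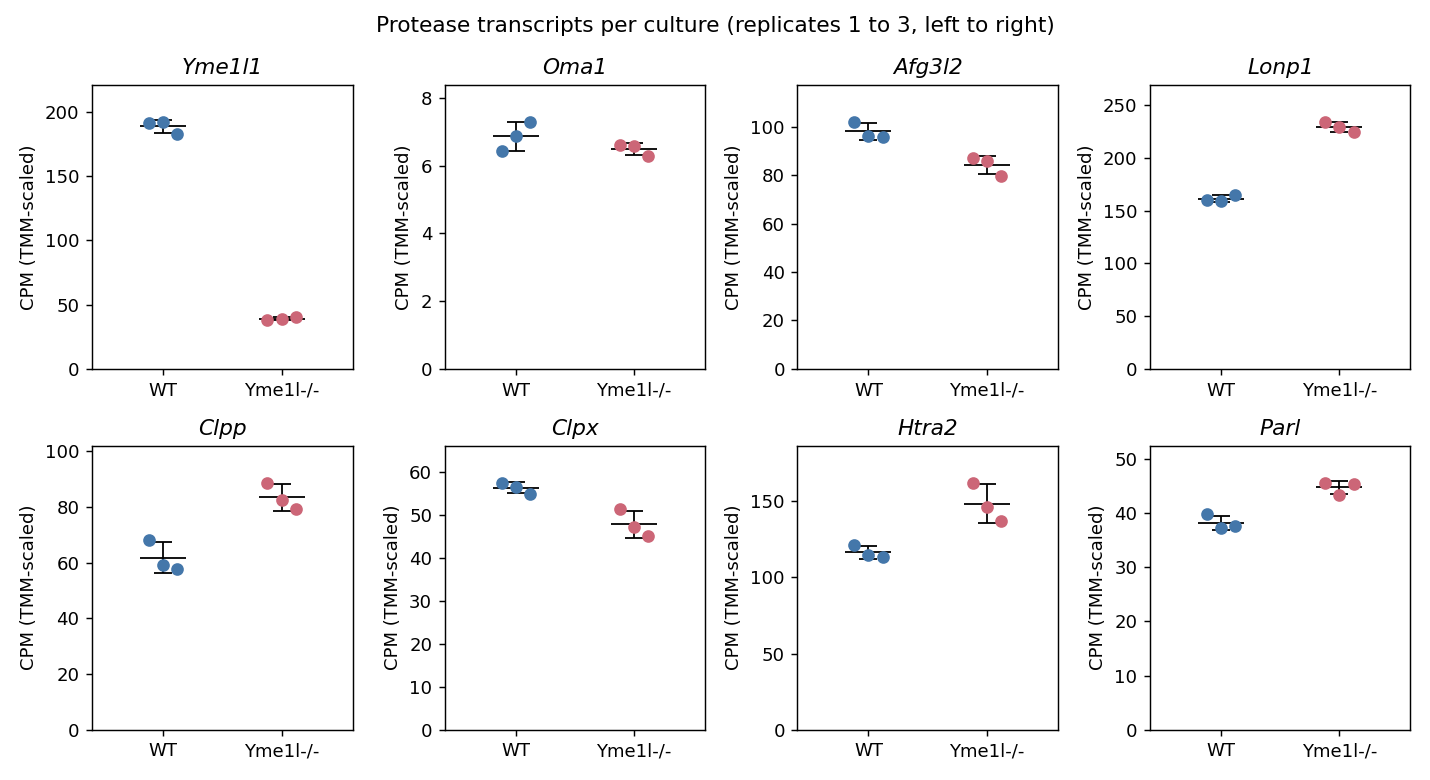
Each panel shows 1 protease, with CPM on TMM-scaled library sizes on the y axis starting at 0, a point for each culture of WT and Yme1l-/- (3 each), and the mean with its SD. Lonp1, Clpp, Htra2 and Parl lie higher in all 3 Yme1l-/- cultures, Yme1l1, Afg3l2 and Clpx lie lower, and for Oma1 the cultures overlap.

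The matrix protease LONP1 degrades oxidized and misfolded proteins and binds mitochondrial DNA. Its transcript stood at 160.1, 159.0 and 165.2 CPM in the WT cultures and at 234.1, 229.7 and 224.9 CPM in the Yme1l-/- cultures. Every Yme1l-/- culture was higher than every WT culture, and the groups were separated by far more than their spread. The means were 161.4 ± 3.30 and 229.6 ± 4.60 CPM (SD, n = 3), a 1.42-fold difference (95% interval 1.34 to 1.51). On the log2 scale Yme1l-/- exceeded WT by 0.51 ± 0.04 (SE, edgeR adjusted p 6.77e-07). In CPM, which weights long transcripts more, Lonp1 also gave the greatest absolute rise of the members, 68.2 CPM. Per transcript length its gain was close to those of Htra2 and Clpp, as given below.

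CLPP is the peptidase of the other matrix protease, and CLPX the AAA+ unfoldase that feeds it. Clpp transcripts were at 68.09, 59.07 and 57.82 CPM in WT and at 88.64, 82.38 and 79.16 CPM in Yme1l-/-. The groups did not overlap, although WT replicate 1 stood above the other WT cultures. Clpp was thus 1.35-fold higher, a log2 fold change of 0.43 ± 0.07 (SE, 95% interval 0.28 to 0.58, edgeR adjusted p 0.000155). Clpx went the other way, from 57.43, 56.42 and 54.85 CPM in WT to 51.27, 47.02 and 45.03 CPM in Yme1l-/-, with all 3 Yme1l-/- cultures lower. Clpx retained 84.95% of its WT level (log2 fold change -0.24 ± 0.06, SE, edgeR adjusted p 0.0028).

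The fragments of Clpp and Clpx were also set against each other within each library, where the scaling of libraries cancels. Ratios are given as descriptions, since they restate changes already shown and the smallest p of an exact permutation test of 3 against 3 is 0.1. The ratio of Clpp to Clpx fragments was 1.186, 1.047 and 1.054 in WT and 1.729, 1.752 and 1.758 in Yme1l-/-. The Yme1l-/- cultures were nearly identical in this ratio and all lay above WT. The difference was 0.67 on the log2 scale, and 0.144 with the medians of their chromosomes removed, where both log2 fold changes were above 0. The ratio of Lonp1 to Clpp was 2.352, 2.691 and 2.857 in WT and 2.641, 2.788 and 2.841 in Yme1l-/-, so the groups overlapped. Its log2 difference was 0.07, or -0.00919 without WT replicate 1.

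Lonp1 and Clpp, the members with the largest increases, are separated by 363360 bases of chromosome 17. The 250 bases before each RefSeq start site (build GRCm38.p6) are shown because these genes rose together, with Lonp1 at chr17:56626904-56627153 on the minus strand and Clpp at chr17:56990014-56990263 on the plus strand. Capitals mark matches to the motifs searched.
Lonp1: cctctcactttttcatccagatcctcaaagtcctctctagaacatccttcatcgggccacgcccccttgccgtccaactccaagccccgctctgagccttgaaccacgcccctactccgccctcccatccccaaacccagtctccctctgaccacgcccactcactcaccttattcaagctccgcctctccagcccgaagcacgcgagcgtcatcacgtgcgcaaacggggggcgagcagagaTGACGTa
Clpp: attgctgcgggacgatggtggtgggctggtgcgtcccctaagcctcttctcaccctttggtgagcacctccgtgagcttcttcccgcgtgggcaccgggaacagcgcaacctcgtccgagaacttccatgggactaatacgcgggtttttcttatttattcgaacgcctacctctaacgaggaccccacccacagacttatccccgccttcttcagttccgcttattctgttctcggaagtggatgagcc
Both strands of the 250 bases before the start were searched for TGATGNAA (the core of the element bound by ATF4 with CHOP), TGACGT (shared by ATF and CREB sites) and CCAAT, motifs chosen after the expression values were known. Promoter sequences were matched for 6 of the 8 members, not for Afg3l2 and Htra2. TGATGNAA was in 0 of the 6 and in 3.45% of 32851 promoters of the same length. TGACGT was in Lonp1 alone, 7 bases before the start, and in 6.47% of all promoters. CCAAT was in Yme1l1 and Clpx, and in 33.8% of all promoters. These are matches of letters and nothing was measured at these sites.

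HTRA2 takes part in protein quality control in the intermembrane space and can promote apoptosis once released. Its transcript had 121.5, 114.7 and 113.5 CPM in WT and 162.2, 146.1 and 136.8 CPM in Yme1l-/-. All Yme1l-/- cultures were higher, with a wide spread among them (148.4 ± 12.8 CPM, SD, n = 3, against 116.6 ± 4.33 CPM). This was a log2 fold change of 0.35 ± 0.06 (SE, edgeR adjusted p 0.000429). In the annotation, exons of Htra2 (chromosome 6, 83051266 to 83055273, minus strand) share 535 bases with Loxl3 and 753 bases with Aup1 on the opposite strand. The libraries were stranded, but whether strand was used in counting is not given in the sources used here, so these genes can share fragments. Loxl3 was called lower (edgeR adjusted p 7.54e-09) and Aup1 higher (0.00577) in Yme1l-/-.

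PARL cuts proteins such as PINK1 and PGAM5 within the membrane. Parl showed the smallest of the increases, from 39.79, 37.33 and 37.64 CPM in WT to 45.66, 43.41 and 45.38 CPM in Yme1l-/-. The groups lay close together without overlapping. Parl was 1.17-fold higher (log2 fold change 0.23 ± 0.05, SE, edgeR adjusted p 0.00178).

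AFG3L2 forms m-AAA proteases that act on the matrix side and process the ribosomal protein MRPL32. Afg3l2 stood at 101.9, 96.31 and 95.86 CPM in WT and at 86.96, 85.70 and 79.73 CPM in Yme1l-/-. Each Yme1l-/- culture was below each WT culture, and the mean was 85.83% of that in WT (log2 fold change -0.22 ± 0.05, SE, edgeR adjusted p 0.00228).

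OMA1 becomes active when the membrane potential falls, and it cleaves OPA1 when YME1L is missing. Oma1 was the least abundant member, with counts of 213, 225 and 238 fragments for WT and of 231, 332 and 320 for the deeper Yme1l-/- libraries. In CPM it was at 6.435, 6.873 and 7.289 in WT and at 6.601, 6.584 and 6.281 in Yme1l-/-, and the groups overlapped. No difference was called (log2 fold change -0.08 ± 0.10, SE, edgeR adjusted p 0.48). Its 95% interval, 0.813-fold to 1.10-fold, did not include an increase of the size measured for Htra2, Clpp or Lonp1. Since Yme1l1 fell, the ratio of Oma1 to Yme1l1 fragments went from 0.03367, 0.03576 and 0.03988 in WT to 0.1741, 0.1691 and 0.1548 in Yme1l-/-. This difference of 2.19 on the log2 scale follows from the decrease of Yme1l1.

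Median log2 fold changes differed between chromosomes, so each member was set beside the loci of its own chromosome. Htra2 was at 0.35 where the median of the 697 tested loci of chromosome 6 was 0.34 (log2 fold changes), and Afg3l2 was at -0.22 where chromosome 18 had a median of -0.21. Clpx fell by 0.24 while chromosome 9 had a median of -0.36. With each chromosome's median removed before the test, Htra2 was at 0.01 (edgeR adjusted p 0.941), Afg3l2 at -0.01 (0.833) and Clpx at 0.12 (0.0753), so none of these 3 was called and Clpx changed sign. Lonp1 (0.34, edgeR adjusted p 2.29e-05), Clpp (0.27, 0.00519) and Parl (0.25, 0.00121) were still called higher. Oma1 was at 0.02 (0.897), and Yme1l1 at -2.25. What lay behind the chromosome medians was not tested.

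Nearer neighbours were compared in the same way. The median log2 fold change of the 20 nearest tested loci on each side, a description added after the values were seen, was 0.15 around Lonp1, 0.03 around Clpp, 0.15 around Parl, 0.41 around Htra2, -0.15 around Afg3l2 and -0.38 around Clpx. Lonp1 and Clpp exceeded their neighbourhoods by 0.35 and 0.41, Clpx by 0.14 and Parl by 0.08, whereas Htra2 and Afg3l2 were each 0.07 and Oma1 0.12 below their own.

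**Figure D2:**
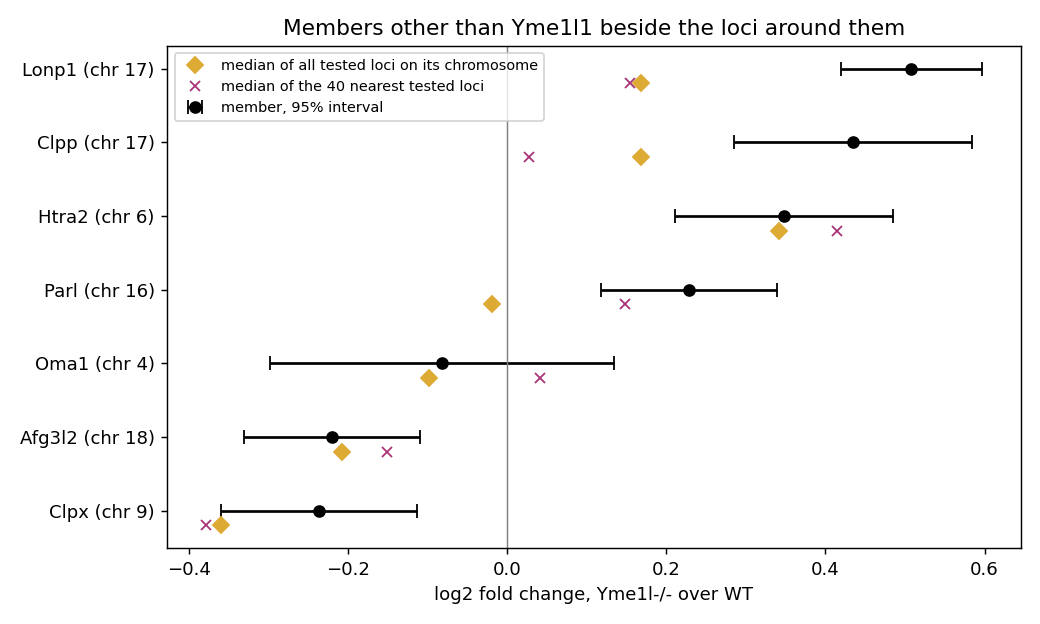
The log2 fold change (Yme1l-/- over WT, x axis) of the 7 proteases other than Yme1l1 is drawn as a point with its 95% interval, beside the median of all tested loci on its chromosome (diamond) and of the 40 nearest tested loci (cross). The intervals of Lonp1 and Clpp lie above both medians, while those of Htra2 and Afg3l2 include both. That of Clpx lies above the median of its 40 nearest loci and ends at about that of its chromosome. Parl lies above the median of its chromosome only.

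Added up as fragments, which weights long transcripts more, the 7 proteases other than Yme1l1 came to 555.26, 529.69 and 532.13 CPM in WT and to 675.42, 640.84 and 617.3 CPM in Yme1l-/-. All Yme1l-/- cultures held more, 1.196 times the WT mean (644.52 ± 29.2 against 539.03 ± 14.1 CPM, SD, n = 3, exact permutation p = 0.1, the smallest possible). In CPM, the gain of these 7 was 105.5 and Yme1l1 fell by 149.6. Htra2 added 31.8 CPM to that gain, although its locus can share fragments with Loxl3 and Aup1. Htra2 also lost its call with chromosome medians removed. The CPM sum was not recomputed without Htra2 or with chromosome medians removed. Counting Yme1l1, the sum averaged 727.73 ± 16.5 CPM for WT and 683.66 ± 27.9 CPM for Yme1l-/- (SD, n = 3, exact permutation p = 0.1), with WT at 746.4, 721.88 and 714.91 CPM and Yme1l-/- at 713.34, 679.77 and 657.87 CPM. The direction of this total depended on the scale. Per transcript length, by the authors' combined FPKM values (fragments scaled to transcript length and library size, 1 value a genotype, without replicates), the total of all 8 was 337.5 in WT and 371.1 in Yme1l-/-, or 250.9 and 262.2 without Htra2, and was thus higher in Yme1l-/-. On that scale Lonp1 gained 23.8, Htra2 22.3 and Clpp 20.7 FPKM, and Yme1l1 fell by 31.9 FPKM. Yme1l1 made up 12.2% of the FPKM total in WT and 2.46% in Yme1l-/-. Within Yme1l-/-, replicate 1 was the highest culture for 7 of the 7 other proteases and replicate 3 the lowest for 6. Replicate 1 also had the smallest library of its genotype, and the part of depth in this was not tested.

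**Figure D3:**
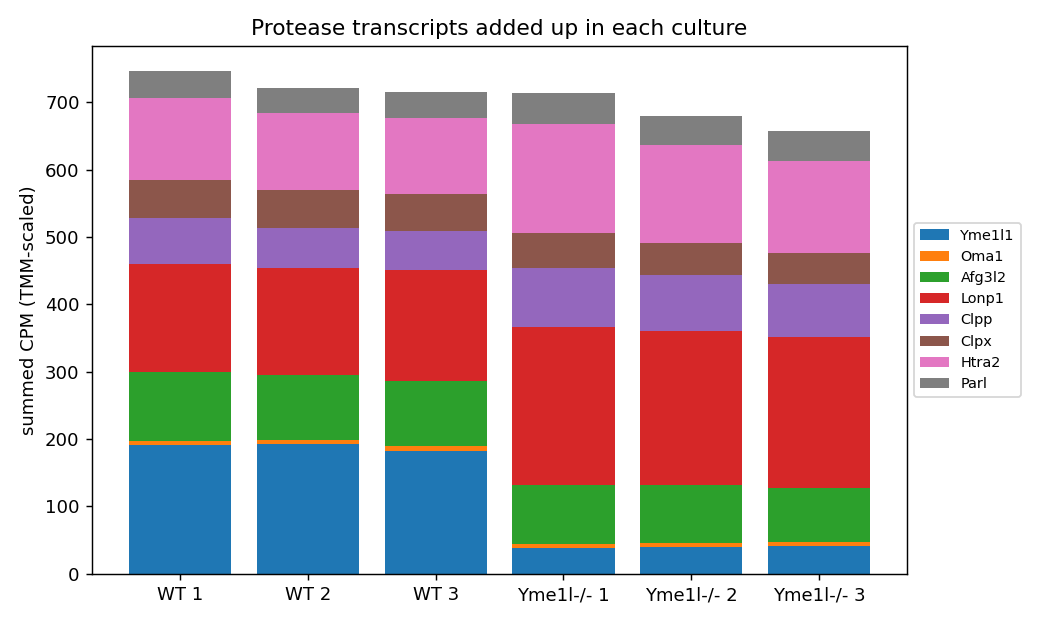
Each bar is a culture, with CPM of the 8 proteases stacked from 0 (Yme1l1 at the bottom) and no scaling to transcript length. Yme1l1 shrinks to a thin layer in the Yme1l-/- cultures while the layer of Lonp1 widens, and the whole bars reach 714.91 to 746.4 CPM in WT and 657.87 to 713.34 CPM in Yme1l-/-.

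Levels of different genes can be compared only per transcript length, for which the same FPKM values were used. In WT, Htra2 was highest at 86.6 FPKM, followed by Clpp (58.4), Lonp1 (56.0), Yme1l1 (41.0), Parl (36.8), Afg3l2 (32.6), Clpx (22.2) and Oma1 (3.83 FPKM). In Yme1l-/-, the order was Htra2 (108.9), Lonp1 (79.8), Clpp (79.1), Parl (44.8), Afg3l2 (28.0), Clpx (17.8), Yme1l1 (9.12) and Oma1 (3.66 FPKM). Yme1l1 thus went from the fourth place to the seventh, and the other genes kept their order except Clpp and Lonp1. These neighbours differed by 4.38% in WT and 0.821% in Yme1l-/-, less than the coefficient of variation of Clpp between cultures (9.09% and 5.78%). All other neighbours in the order were further apart than their variation between cultures, although the FPKM of the Htra2 locus, which spans Loxl3 and Aup1, is uncertain.

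The wider set of mitochondrial peptidases was examined next. It comprised 12 genes for enzymes that remove targeting sequences, degrade peptides or act at the outer membrane. Of these, 7 rose, 3 fell and 2 were not called, with a median log2 fold change of 0.19, beside 33.6% of all loci called higher and 34.1% lower. Xpnpep3, an aminopeptidase that trims imported proteins, rose from 22.68 ± 1.62 to 45.96 ± 1.28 CPM (SD, n = 3, log2 fold change 1.02 ± 0.06, SE), on chromosome 15, whose median was 0.59. Atp23, a metalloprotease of the intermembrane space, rose by 0.85 ± 0.10, Lactb by 0.45 ± 0.07 and Nln, an oligopeptidase, by 0.27 ± 0.04 (log2 fold change ± SE). Immp2l, a subunit of the inner membrane peptidase, fell from 3.21 ± 0.34 to 1.29 ± 0.19 CPM (log2 fold change -1.33 ± 0.17, SE), and lies on chromosome 12 with a median of -0.44. Pitrm1, which degrades cleaved targeting sequences, was at -0.26 ± 0.05 and Pmpca, a subunit of the main processing peptidase, at -0.13 ± 0.04. Immp1l, the partner of Immp2l, was at -0.00 ± 0.07 and was not called (log2 fold change ± SE). With chromosome medians removed, 7 were still called higher and 3 lower, with a median of 0.18. Lactb then stood at 0.81, Atp23 at 0.56, Xpnpep3 at 0.43 and Immp2l at -0.89.

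Partners that bind or scaffold the proteases numbered 5, of which 3 rose, 1 fell and 1 was not called (median log2 fold change 0.29). Beside this, 67.7% of all loci were called, 33.6% higher and 34.1% lower. The prohibitins form rings around m-AAA proteases. Phb was at 0.29 ± 0.09 and Phb2 at 0.36 ± 0.06, near the medians of their chromosomes (0.36 and 0.34). Ghitm, an inner membrane protein that interacts with AFG3L2, rose by 0.37 ± 0.04 although its chromosome had a median of -0.17. Stoml2, which assembles YME1L with PARL, was at -0.23 ± 0.06, and Maip1, a partner of m-AAA, at 0.02 ± 0.08 without a call (log2 fold change ± SE). With chromosome medians removed, 1 of the 5 was called higher and the median was 0.02, and without Yme1l-/- replicate 1 the median was 0.18. Higher calls numbered 2 when replicate numbers were blocked, and with no filter beyond a total of 1 count. They also numbered 2 without WT replicate 1 or WT replicate 2.

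Transcripts of proteins that these proteases cut or degrade went both ways. Of 18 genes, 7 rose, 5 fell and 6 were not called, with a median log2 fold change of 0.07, so that calls were about as frequent as among all loci (67.7%). Without the 2 merged loci, 5 were higher and 5 lower, with a median of -0.01. The highest were Smdt1, whose locus is merged with Fam109b (0.86 ± 0.06), then Pink1 (0.45 ± 0.10), Tfam (0.42 ± 0.05), the pyrimidine carrier gene Slc25a33 (0.37 ± 0.09) and Eral1 (0.36 ± 0.07, log2 fold change ± SE). Diablo, merged with AC157931.1, was at 0.17 ± 0.04. The lowest were Xiap (-0.35 ± 0.06), the lipid transfer gene Prelid1 (-0.27 ± 0.05), Romo1 (-0.17 ± 0.09, not called) and Timm17a (-0.14 ± 0.05, edgeR adjusted p 0.0345). YME1L is known to degrade SLC25A33, PRELID1, TIMM17A and ROMO1. With chromosome medians removed, Slc25a33 (0.47) and Pink1 (0.55) were still called higher and Prelid1 (-0.35) lower. Smdt1 then stood at 0.27 and Tfam at 0.13, both still called, while Eral1 (0.01, edgeR adjusted p 0.952), Mrpl32 (0.10, 0.231), Xiap (-0.14, 0.0586), Timm17a (0.02, 0.786) and Dele1 (0.09, 0.121) lost their calls, with a changed sign for Timm17a and Dele1. Ttc19 (-0.23, edgeR adjusted p 0.00892) was called lower and Alas1 (0.41, 4.97e-05) higher, neither of which was called before, which made 6 higher and 3 lower in all. Opa1, the substrate shared by YME1L and OMA1, lies outside the naming rule and averaged 99.58 ± 4.53 CPM for WT and 91.95 ± 7.84 CPM for Yme1l-/- (log2 fold change -0.11 ± 0.06, edgeR adjusted p 0.137). The count of 5 lower genes was 2 under upper-quartile scaling and without WT replicate 1 or Yme1l-/- replicate 2 or 3, where fewer cultures also lower the power. It was 7 when replicate numbers were blocked.

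Genes known to respond to mitochondrial protein stress were examined last. Of 14 genes, 9 rose, 1 fell and 4 were not called (median log2 fold change 0.61, or 0.99 without the merged locus). Beside this, 67.7% of all loci were called, 33.6% higher and 34.1% lower. The highest were Trib3 at 2.51 ± 0.07, Ddit3, which encodes CHOP, at 1.97 ± 0.07, Fgf21 at 1.90 ± 0.48 from at most 8 fragments per WT library, and Chac1 at 1.43 ± 0.07 (log2 fold change ± SE). Of the genes for matrix chaperones, Trap1 was called higher (0.23 ± 0.05), whereas Hspd1, Hspe1 and Hspa9 were not called. Hspd1 (HSP60) averaged 882.9 ± 25.7 CPM for WT and 872.7 ± 9.37 CPM for Yme1l-/- (SD, n = 3, log2 fold change -0.02 ± 0.05), Hspe1 (HSP10) was at -0.11 ± 0.06 and Hspa9 (mtHSP70) at 0.02 ± 0.05. With chromosome medians removed, 11 of the 14 genes were called higher, the 2 added being Hspd1 (0.14 ± 0.05, edgeR adjusted p 0.0252) and Hspa9 (0.23 ± 0.05, 0.00134). Gdf15 was at 0.22 ± 0.42 from at most 20 fragments per library. The lower call was Dnaja3, whose locus is merged with Vasn (-0.58 ± 0.04, log2 fold change ± SE).

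**Figure D4:**
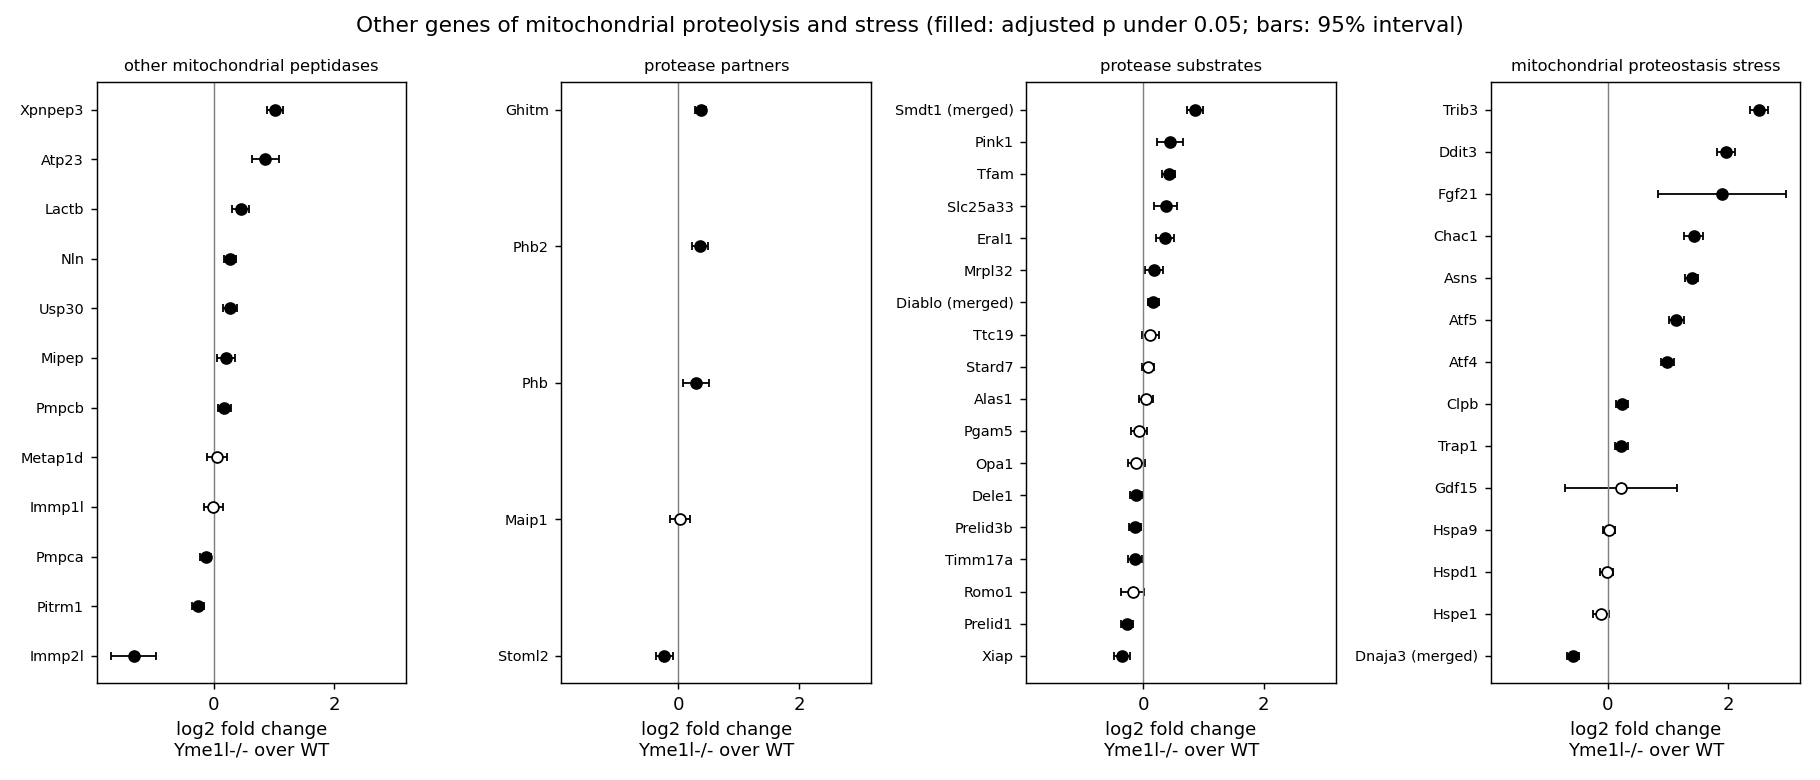
Each panel shows a list, with the log2 fold change (Yme1l-/- over WT) on the x axis, a 95% interval, and filled points for an adjusted p under 0.05. Peptidases and substrates spread to both sides of 0, while the stress list runs from Dnaja3 at -0.58 to Trib3 at 2.51.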

How the data were processed

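The members and gene lists were chosen with earlier results of these data known. Per the labels and the study's methods, poly(A) RNA was sequenced from stranded libraries, mapped to mm10 (GRCm38) with HISAT2 2.0.4 and assembled with StringTie 1.3.3. Raw fragment counts for each assembled locus and library were deposited by the authors. The FPKM values were computed by the authors with Cuffdiff 2.2.1, normalized to length and library size and combined per genotype, and served here only for levels and totals over genes. Fold changes and p-values in the same table were not used. A member was a locus whose name, split at commas, held its symbol. Dele1 was matched by the older symbol 0610009O20Rik.

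In R 4.3.3, loci were filtered with filterByExpr (minimum count 10) and tested with edgeR 4.0.16 (TMM, quasi-likelihood, robust, two-sided), with Benjamini-Hochberg adjustment over 13867 loci and a call at 0.05. The script was tested on simulated data. SE and intervals come from the fold change and its statistic. Depth varied between libraries, and intervals cover the spread between 3 cultures. Sums used exact permutation tests, and ratios are given without a test. Named were all members and, in each list, the 4 highest and 4 lowest unmerged genes and the merged loci. Other genes were chosen after their values were seen. Gene positions are those of the authors' table, and overlaps were taken from GENCODE M21.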

Additional observations from a re-analysis of the deposited data

How the results depend on the processing

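Alternatives were RLE and upper-quartile scaling, DESeq2 1.42.0, 2 other filters on low counts, the replicate number as a block, each culture left out, chromosome medians removed, and lists without merged loci. Calls over all loci numbered 8513 to 10051. Yme1l1, Lonp1, Clpp and Parl were called in the same direction under all 13 that refitted single genes, and Afg3l2, Clpx and Htra2 under all but 1.

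With chromosome medians removed, the log2 fold changes of Oma1 and Clpx changed sign, to 0.0161 and 0.123, and Afg3l2 (-0.0132) and Htra2 (0.00604) lost their calls. Lower calls were then 1 among members and 3 among substrates, partners had 1 higher and 0 lower, and the stress list 11 higher (9 before), with Hspd1 and Hspa9 added and a median log2 fold change of 0.464 in place of 0.614. Upper-quartile scaling left 2 lower substrates. The stress list had 2 lower calls with the replicate block and 0 without merged loci, since the lower call was a merged locus, and its median was then 0.992. The median of the substrates was -0.00839 without merged loci, 0.126 under upper-quartile scaling and 0.0414 without WT replicate 2, against 0.0665, and that of the partners 0.0231 with chromosome medians removed and 0.18 without Yme1l-/- replicate 1, against 0.291. The log2 ratio of the total of all 8 members was -0.0901 in CPM and 0.137 in the authors' FPKM, an alternative chosen after seeing the data that also scales to transcript length. Leaving out a culture gave 2 to 6 lower substrates, 1 to 2 lower stress genes, and a log2 ratio of Lonp1 to Clpp between -0.00919 and 0.131. The cause of the moves with scaling, chromosomes or single cultures was not tested.

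Between the WT and Yme1l-/- culture of each replicate number, correlations were 0.198, -0.158 and 0.0482 after group means were subtracted. Whether the numbers pair the cultures was not tested. With the replicate block 9794 loci were called, 4 members higher and 3 lower. Depth limits Oma1 most, with 213 fragments in its thinnest library.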
